A study of Mus musculus with 18 samples.

Results

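Thymocytes that carry the OT2 receptor were compared between a wild-type host, in which the receptor can be positively selected, and a host labelled as giving no selection. Cells were assigned to a mouse by the hashtag number in the deposited cell table. Hashtag HT11 marked 254 cells of the PosSelected host and hashtag HT21 marked 108 cells of the NoSelection host, together 362 of the 1331 cells of 6 mice that shared 1 lane. The study placed OT1 or OT2 marrow in selecting, deleting and non-selecting hosts and read RNA, surface antibodies and receptor sequences from single cells. Only the RNA and antibody counts were used here.

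OT2 is a transgenic T cell receptor with the Vα2 and Vβ5 chains that recognises an ovalbumin peptide on MHC class II. In both mice the donor marrow was OT2 CD45.1.2 and made up 30% of the graft, and B6 CD45.1 competitor marrow made up 70%. Both were female, were given an age of 14 weeks in the labels and were taken 6 weeks after transplant. The PosSelected recipient was a C57BL/6NCrl wild-type mouse. The NoSelection recipient was an MHCII KO mouse on the B6.Ly5.1/Ncr background by its treatment label and the series design. Its comment fields name a B2m KO recipient instead, and the treatment label was followed. Thymi were dissociated mechanically, and CD44lo CD45.1.2+ Vα2+ Vβ5+ cells were sorted, so levels of the sorted antigens reflect the sort as well as the host. The labels say that mice were not pooled. The selecting stroma belongs to the host, whereas the sorted cells and the competitor cells come from marrow that was not deficient in MHC class II by its labels.

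A developing αβ T cell first carries both CD4 and CD8 and tests its receptor against peptide and MHC on the thymic epithelium. A receptor that engages MHC class II weakly is positively selected: the cell stops recombining receptor genes, raises CD5, CD69 and the receptor itself, lowers CD8 and matures as a CD4 single-positive cell. Without the selecting MHC the cell normally stays at the CD4+CD8+ stage and dies there.

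Every comparison rests on 1 mouse a side. No test was possible and no p-value is given. Intervals are 95% intervals, exact except for differences of shares, and cover counting error only. Differences between hosts cannot be told apart from differences between these 2 mice. Cells of 1 mouse are not replicates of the host.

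The oligos that define the cells and gates are shown first, because each cell's mouse and gate were read from them. They are the barcode sequences of the deposited feature table, printed 5′ to 3′ in lower case, and each has 15 bases.
HT11, the PosSelected hashtag: gcttaccgaattaac
HT21, the NoSelection hashtag: ctttagttcgttgtg
CD4 antibody: aacaagacccttgag
CD8A antibody: tacccgtaatagcgt
CD5 antibody, with the highest ratio among CD4+CD8+ cells: cagctcagtgtgttg

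The PosSelected mouse gave 805275 RNA UMIs and the NoSelection mouse 525843, where a UMI is 1 counted molecule. Median depth per cell was 2937 UMIs in PosSelected cells and 3022 in NoSelection cells. Antibody UMIs totalled 1026744 in the PosSelected mouse and 422283 in the NoSelection mouse. Mitochondrial genes held 1.70% of RNA UMIs in PosSelected and 1.57% in NoSelection cells, and ribosomal protein genes held 20.2% in PosSelected and 17.4% in NoSelection cells. Cd3e, the CD3 epsilon chain, had a UMI in 243 of 254 PosSelected cells and in 95 of 108 NoSelection cells. Segments of the Trbv12 family, which encode Vβ5, held 67.0% of Trbv UMIs in PosSelected and 77.9% in NoSelection cells. Segments of the Trav14 family, which encode Vα2, held only 13.5% of Trav UMIs in PosSelected and 16.8% in NoSelection cells. They had a UMI in 59 of 254 PosSelected and 28 of 108 NoSelection cells, and the reason for this low share was not tested. Markers of cells outside the sort were sparse: 8 myeloid markers summed to 58 UMIs in the PosSelected and 115 in the NoSelection mouse, and 6 B cell markers to 160 in the PosSelected and 172 in the NoSelection mouse, mostly Ighm. The 5 erythroid markers gave 1 UMI in the PosSelected mouse and 0 in the NoSelection mouse, and the 5 thymic epithelial markers 3 UMIs in the PosSelected mouse and 19 in the NoSelection mouse. No cell barcode occurred more than once.

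The CD4 and CD8A antibodies placed most PosSelected cells among CD4 single-positive cells, and the NoSelection cells mainly among double-positive and double-negative cells. An antibody level is the number of its UMIs per 10000 antibody UMIs of the cell. The thresholds were 148 per 10000 for CD4 and 199 per 10000 for CD8A. The CD4+CD8- gate held 195 PosSelected cells, or 76.8% (interval 71.1% to 81.8%), and 10 NoSelection cells, or 9.26% (4.53% to 16.4%). The difference was 67.5 percentage points, with an interval of 58.6 to 73.8.

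The CD4+CD8+ gate held 26 PosSelected cells, or 10.2% (6.80% to 14.6%), and 44 NoSelection cells, or 40.7% (31.4% to 50.6%). The CD4-CD8- gate held 25 PosSelected cells, or 9.84% (6.47% to 14.2%), and 51 NoSelection cells, or 47.2% (37.5% to 57.1%). Both shares were lower in the PosSelected mouse, by more than their counting intervals. The CD4-CD8+ gate held 8 PosSelected and 3 NoSelection cells, and the interval of their difference in share, -4.93 to 3.84 points, spans 0. Gates defined on unscaled antibody counts held other shares: 54.3% of PosSelected and 6.48% of NoSelection cells were then CD4+CD8-, and 33.5% of PosSelected and 50.9% of NoSelection cells were CD4-CD8-.

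Because cells of different gates held different amounts of RNA, shares of RNA were not shares of cells. The CD4-CD8- gate gave 14.9% of PosSelected and 71.1% of NoSelection RNA UMIs, and the CD4+CD8- gate 73.2% of PosSelected and 8.90% of NoSelection UMIs. The CD4+CD8+ gate gave 8.28% of PosSelected and 16.2% of NoSelection UMIs. Median depth in the CD4+CD8+ gate was 2471 UMIs in PosSelected and 1852 in NoSelection cells. In the CD4-CD8- gate it was 4429 UMIs in PosSelected and 6147 in NoSelection cells. A sum over all NoSelection cells is therefore mostly a sum over double-negative cells.

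**Figure D1:**
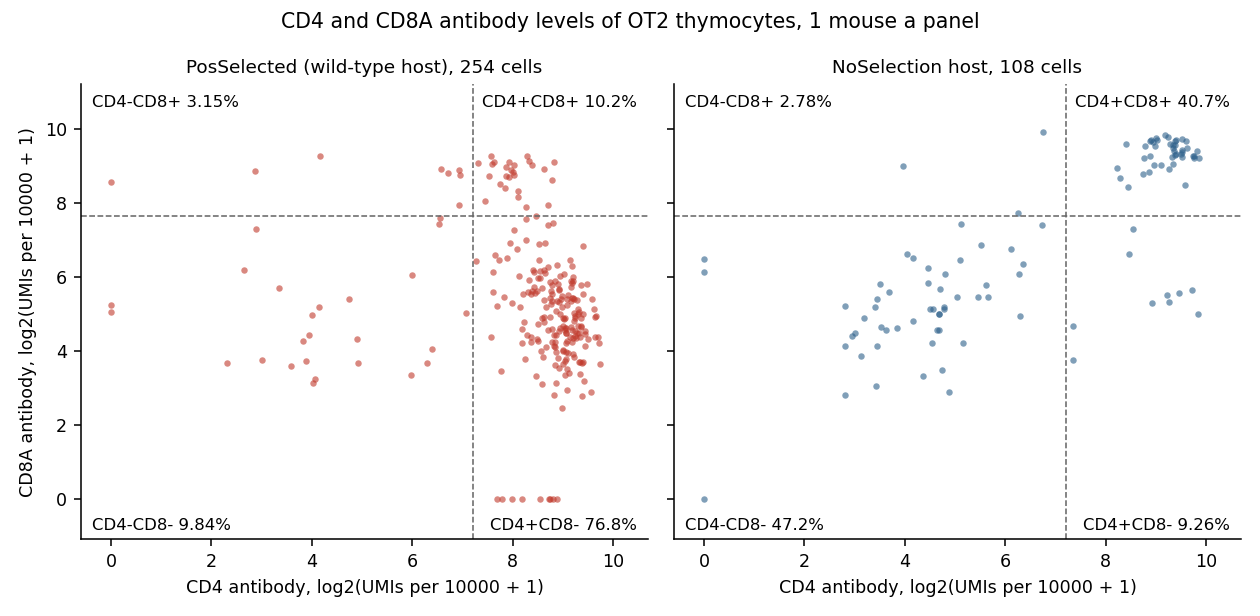
CD4 (x axis) and CD8A (y axis) antibody levels on the log2(UMIs per 10000 + 1) scale, 1 point a cell, with the PosSelected mouse on the left and the NoSelection mouse on the right; dashed lines are the gate thresholds. PosSelected cells gather at the lower right (76.8% CD4+CD8-), and NoSelection cells gather at the upper right (40.7%) and lower left (47.2%).

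Summed over all cells, maturation, interferon-response and MHC class I genes were higher in the PosSelected mouse, and preselection, cell cycle and gamma delta genes were lower. Of 4560 genes with enough UMIs to compare, 226 (4.96%) were at least 2-fold higher and 252 (5.53%) at least 2-fold lower in PosSelected cells, and the median log2 ratio was -0.06. A gene was compared if both mice together held at least 50 of its UMIs and at least 10 were expected in the shallower sum. Levels are CPM, RNA counts scaled to the same total in every sum. The counting interval lay wholly beyond 2-fold for 79 of the higher and 86 of the lower genes.

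Among genes of single-positive maturation and egress, 13 of the 17 compared were at least 2-fold higher in PosSelected cells, none was 2-fold lower, and their median log2 ratio was 1.92. S1pr1, the receptor that lets mature thymocytes leave the thymus, had 193 CPM in PosSelected and 28.5 CPM in NoSelection cells. Slfn1, a Schlafen gene of quiescent T cells, had 272 UMIs in 123 PosSelected cells and 7 UMIs in 6 NoSelection cells, a ratio of 25.4 (12.2 to 63.7).

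Of the 13 interferon-response genes compared, 12 were at least 2-fold higher and none 2-fold lower, with a median log2 ratio of 2.08. Ifi27l2a, an interferon-induced gene, had 857 CPM in PosSelected and 22.8 CPM in NoSelection cells, a ratio of 37.6 (21.4 to 73.0). Ifit1, an interferon-induced RNA-binding protein, had 115 UMIs in 33 PosSelected cells and 3 UMIs in 3 NoSelection cells, a ratio of 25.03 (8.35 to 123). MHC class I genes followed, with 7 of 12 at least 2-fold higher and a median of 1.06. H2-K1, a classical class I heavy chain, had 1807 CPM in PosSelected and 456 CPM in NoSelection cells.

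Genes that a positively selecting signal is known to raise were higher in part over all cells. Of 12 post-selection genes, 5 were at least 2-fold higher and none was 2-fold lower, with a median log2 ratio of 0.78. Ccr7, the chemokine receptor that guides selected cells to the medulla, had 478 CPM in PosSelected and 81.8 CPM in NoSelection cells. Of 7 compared early genes induced through the receptor, 4 were at least 2-fold higher and 1 was 2-fold lower. Egr1, an immediate early transcription factor, had 193 CPM in PosSelected and 60.9 CPM in NoSelection cells. Nr4a1, which encodes Nur77, went the other way, with 21.1 CPM in PosSelected and 108 CPM in NoSelection cells. In NoSelection cells, 27 of the 57 Nr4a1 UMIs came from 1 cell.

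CD4 lineage genes split. Zbtb7b, which encodes the CD4-lineage factor ThPOK, had 46 UMIs in 42 PosSelected cells and 5 UMIs in 3 NoSelection cells, a ratio of 6.01 (2.40 to 19.4). Cd40lg, the helper ligand of CD4 T cells, had 111 CPM in PosSelected and 22.8 CPM in NoSelection cells. Gata3, a transcription factor of early thymocytes and of the CD4 lineage, was lower, with 119 CPM in PosSelected and 253 CPM in NoSelection cells. Foxp3, the regulatory T cell factor, had 1 UMI in the PosSelected mouse and 0 in the NoSelection mouse.

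Among genes lower in PosSelected cells, 8 of 10 compared preselection genes and 11 of 11 compared cell cycle genes were at least 2-fold lower. Rag1, a subunit of the recombinase that assembles receptor genes, had 4 UMIs in 3 PosSelected cells and 147 UMIs in 41 NoSelection cells, a ratio of 0.0178 (0.00478 to 0.0465). Top2a, a topoisomerase of dividing cells, had 3 UMIs in PosSelected and 88 UMIs in NoSelection cells. The cell cycle list had a median log2 ratio of -2.87, but its NoSelection UMIs were concentrated: 5 cells held 725 of 1028, whereas the top 5 PosSelected cells held 19 of 189. Without cells above the 95th percentile of UMIs the median was -1.44. All 7 gamma delta genes were at least 2-fold lower, with a median of -1.62, or -3.16 without those deep cells. Trdc, the constant region of the delta chain, had 107 CPM in PosSelected and 327 CPM in NoSelection cells.

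Each CPM difference was then split exactly into a part that comes from the gates' shares of RNA and a part that comes from levels within gates, both weighted by the mean of the 2 mice. A level within a gate is that of the gate's sum. The part within gates therefore also holds shifts between kinds of cells inside a gate, which were not separated from changes per cell. The share due to composition had a median of 38.8% over the 226 higher genes and 43.8% over the 252 lower genes. It was 50% or more for 87 of the higher and 103 of the lower genes. The split was made with the main gates only and was not repeated with the other gates, which hold other shares of cells. It also depends on the weights. With the levels of the PosSelected mouse the median share was 55.4% over the higher and 23.7% over the lower genes, and with those of the NoSelection mouse it was 26.3% over the higher and 69.1% over the lower genes.

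The lists differed in this split. Gamma delta genes owed 105.9% of their summed difference to composition, or 149.3% with PosSelected levels and 62.5% with NoSelection levels, so the direction of the part within gates turned with the weights. CD8 lineage genes owed 82.9%, maturation and egress genes 69.2% and MHC class I genes 57.3%. In the main gates all 3 lists stayed above 50% with either mouse's levels. Post-selection genes gave 48.1%, with 50.8% by PosSelected and 45.5% by NoSelection levels. For further lists, too, the larger part turned with the weights. Preselection genes gave 49.1%, with 35.2% by PosSelected and 63.0% by NoSelection levels, and interferon-response genes 39.0%, with 53.1% by PosSelected and 24.9% by NoSelection levels. Cell cycle genes gave 36.5%, with 1.21% by PosSelected and 71.8% by NoSelection levels. Early genes induced through the receptor gave 36.8%, with 57.8% by PosSelected and 15.8% by NoSelection levels. Genes of deleting or agonist signals gave 41.8%, with 27.9% by PosSelected and 55.7% by NoSelection levels.

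Single genes ranged widely. Cd52, a small surface glycoprotein of mature lymphocytes, differed by 1131 CPM, of which 1139 CPM came from composition. Atp1b3, a subunit of the sodium pump, owed 98.6% to composition. Itm2a, a membrane protein induced by selecting signals, differed by 641 CPM and owed 10.8% to composition, or 33.5% with PosSelected and -11.9% with NoSelection levels. Of its 572 CPM within gates, 307 came from the CD4+CD8- gate with its 10 NoSelection cells.

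**Figure D2:**
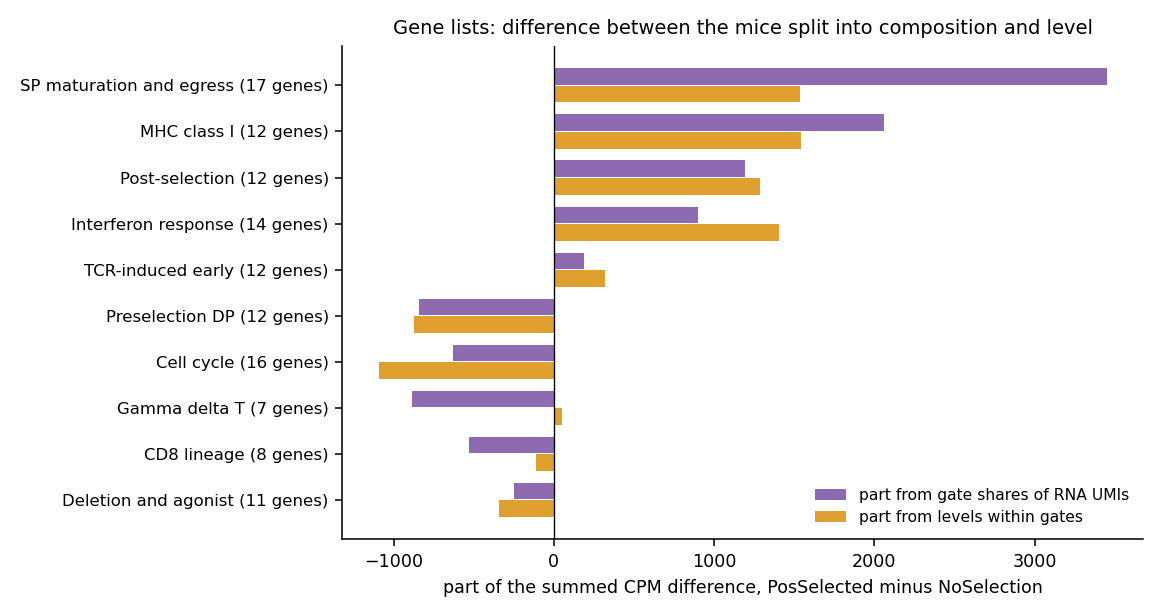
Summed CPM difference of each gene list, PosSelected minus NoSelection, on the x axis, split into the part from gate shares of RNA UMIs and the part from levels within gates. With the mean of the 2 mice as weights, as drawn, CD8 lineage (82.9%) and maturation genes (69.2%) have the larger part in composition. For cell cycle and interferon-response genes, among other lists, the larger part turns when the levels of 1 mouse are the weights.

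Within the CD4+CD8+ gate, preselection genes were lower and post-selection genes higher in PosSelected cells. Of 418 genes compared, 23 (5.50%) were at least 2-fold higher and 33 (7.89%) at least 2-fold lower, with a median log2 ratio of 0.15. Gates set on centred log ratios of the antibody counts gave 43 higher and 51 lower, with other cells and so another number of genes compared. Of the 7 compared preselection genes, 6 were at least 2-fold lower and none higher, with a median log2 ratio of -2.04. Of the 5 compared post-selection genes, 4 were at least 2-fold higher and none lower, with a median of 1.78. None of the 9 compared CD3 and proximal signalling genes passed 2-fold, and their median was -0.14. These genes encode the CD3 chains and kinases such as Lck, which cells at this stage already make.

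Rag1 had 4 UMIs in 3 of 26 PosSelected cells and 120 UMIs in 37 of 44 NoSelection cells, or 60.0 and 1408 CPM, a ratio of 0.0426 (0.0114 to 0.112). After each cell was thinned to 1000 UMIs, Rag1 was seen in 2 of 26 PosSelected and 31 of 41 NoSelection double-positive cells. It was seen in 0 of 192 thinned PosSelected CD4+CD8- cells. By the 3 counts that a count of 0 allows, up to 1.56% of cells could hold a UMI at this thinned depth, which sets no limit on the share of cells that express Rag1. The PosSelected double-positive cells were the deeper ones, at a median of 2471 UMIs against 1852 in NoSelection cells.

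Other preselection genes followed. Arpp21, a cAMP-regulated phosphoprotein typical of double-positive thymocytes, had 405 CPM in PosSelected and 1667 CPM in NoSelection cells, a ratio of 0.243 (0.155 to 0.369). Rmnd5a, a subunit of a ubiquitin ligase, had 10 UMIs in 7 PosSelected cells and 74 UMIs in 35 NoSelection cells. Dntt, the terminal transferase that adds bases at receptor junctions, had 615 CPM in PosSelected and 1361 CPM in NoSelection cells. Ets2, a transcription factor, stayed within 2-fold, with 390 CPM in PosSelected and 692 CPM in NoSelection cells. Outside the list, Tsc22d3, a glucocorticoid-induced gene, had 2 UMIs in PosSelected and 50 UMIs in NoSelection cells, a ratio of 0.0511 (0.00603 to 0.195).

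Itm2a had 104 UMIs in 17 of 26 PosSelected cells and 2 UMIs in 2 of 44 NoSelection cells, a ratio of 66.5 (17.9 to 556). Cd5, an inhibitory co-receptor whose level tracks the strength of self-recognition, had 74 UMIs in 18 PosSelected cells and 4 UMIs in 4 NoSelection cells, a ratio of 23.7 (8.86 to 89.1). Thinned to 1000 UMIs, Itm2a was seen in 14 of 26 PosSelected and 2 of 41 NoSelection cells, and Cd5 in 12 of 26 PosSelected and 0 of 41 NoSelection cells. Tmsb10, an actin-binding thymosin, was read in all 26 PosSelected cells, at 7338 CPM, and in 32 of 44 NoSelection cells, at 786 CPM, a ratio of 9.33 (7.22 to 12.2). Lcp1, an actin-bundling protein of leukocytes, and Rgs10, a regulator of G protein signalling, had ratios of 4.90 (2.56 to 10.2) and 4.53 (2.28 to 9.81).

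Some genes that were level over all cells differed within this gate. Tox, a factor needed for CD4 lineage development, had 573 CPM in PosSelected and 572 CPM in NoSelection cells over all cells, a ratio of 1.00. Within the CD4+CD8+ gate Tox had 1125 CPM in PosSelected and 329 CPM in NoSelection cells, a ratio of 3.43 (2.19 to 5.49). Id3, an inhibitor of E proteins induced by receptor signals, had a ratio of 1.00 over all cells and 4.57 (2.49 to 8.94) in this gate. The CD4-CD8- gate held 240 of the 282 NoSelection UMIs of Id3 and 259 of the 301 of Tox.

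Cd4 RNA changed side. Over all cells Cd4 had 286 CPM in PosSelected and 141 CPM in NoSelection cells, a ratio of 2.03 (1.56 to 2.67). Among CD4+CD8+ cells Cd4 had 285 CPM in PosSelected and 681 CPM in NoSelection cells, a ratio of 0.419 (0.236 to 0.714). With every cell weighted the same, the log2 ratio over all cells was -0.09 in place of 1.02. Cd8a and Cd8b1, the CD8 chains, had ratios of 0.729 (0.569 to 0.930) and 0.643 (0.490 to 0.838) in this gate, within 2-fold.

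**Figure D3:**
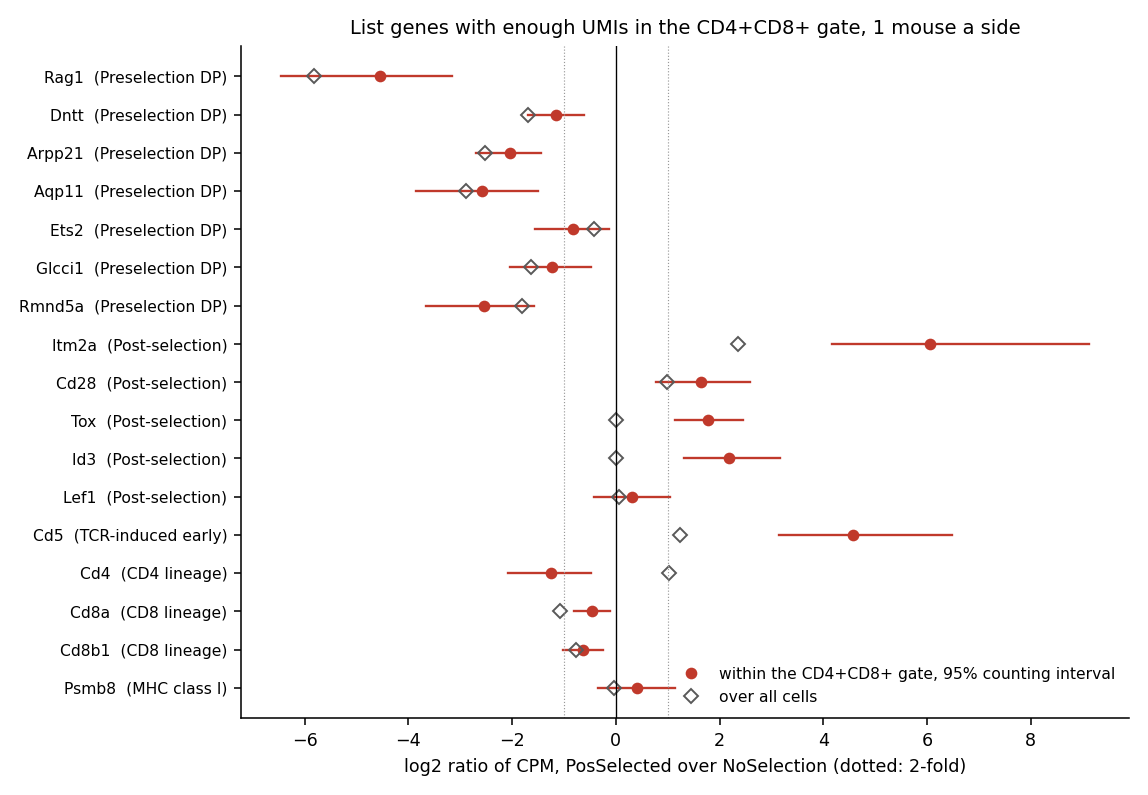
Log2 ratio of CPM, PosSelected over NoSelection, for list genes with enough UMIs in the CD4+CD8+ gate; filled circles with lines are the ratio within the gate and its 95% counting interval, open diamonds the ratio over all cells. Tox and Id3 sit at 0 over all cells and right of the 2-fold line within the gate, and Cd4 lies on opposite sides.

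The CD5 and CD4 antibodies differed in the same direction as their RNA in CD4+CD8+ cells. Of 59 antibodies compared, 3 (5.08%) were at least 2-fold higher and 2 (3.39%) at least 2-fold lower in PosSelected cells. CD5 per cell had a median of 679 per 10000 (lowest 51.6, highest 1652) in PosSelected and 88.7 (14.1 to 415) in NoSelection cells, and 23 of 26 PosSelected cells lay above the highest NoSelection cell. CD2, an adhesion receptor that rises with maturation, had a median of 137 (13.03 to 339) in PosSelected and 28.2 (0 to 138) in NoSelection cells.

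The CD4 antibody had a median of 252 (158 to 450) in PosSelected and 643 (301 to 926) in NoSelection double-positive cells, and no PosSelected cell reached the NoSelection median. CD8A had a median of 466 (234 to 620) in PosSelected and 669 (343 to 916) in NoSelection cells, and again no PosSelected cell reached the NoSelection median. The gate rests on these antibodies, but the same cut was applied to both mice. The PosSelected cells of this gate thus carried less of both co-receptors.

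The antibody against I-A/I-E, the mouse MHC class II molecules, had a median of 43.2 (12.6 to 350) in PosSelected and 14.6 (0 to 105) in NoSelection cells of this gate, with 25 of 26 PosSelected cells above the NoSelection median. Its medians in PosSelected and NoSelection cells were 44.7 and 23.6 in the CD4+CD8- gate and 32.3 and 29.7 in the CD4-CD8- gate. In the few CD4-CD8+ cells they were 35.2 and 40.3. Among CD4+CD8+ cells the receptor antibodies did not differ by 2-fold. The median of TCRB was 13.5 in PosSelected and 15.4 in NoSelection cells, that of Vα2 38.0 in PosSelected and 40.1 in NoSelection cells, and that of CD3 52.0 in PosSelected and 50.5 in NoSelection cells. TCRB lay near the highest isotype controls given below for all cells, at a median of 5.5 UMIs per PosSelected and 6 per NoSelection cell. Its medians therefore say little about the surface receptor, and Vα2 was an antigen of the sort. CD69, an early activation marker, had a median of 43.1 in PosSelected and 32.6 in NoSelection cells. THY1.2, carried by all thymocytes, was level at 3492 in PosSelected and 3495 in NoSelection cells.

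**Figure D4:**
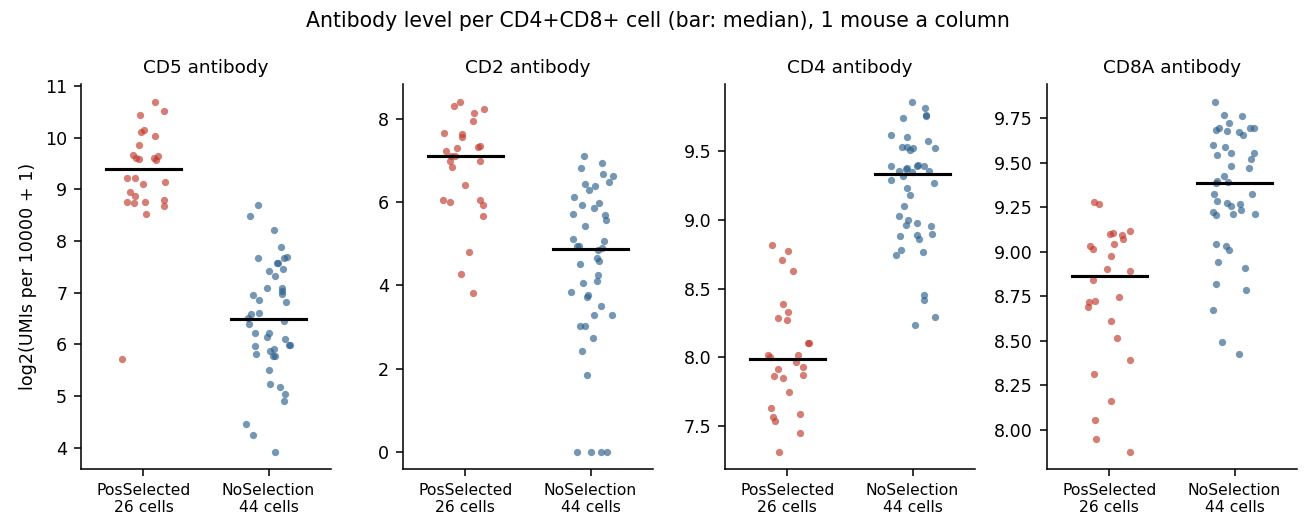
Antibody level of each CD4+CD8+ cell on the log2(UMIs per 10000 + 1) scale, PosSelected on the left and NoSelection on the right of each panel, with a bar at the median. CD5 and CD2 are higher and CD4 and CD8A lower in the 26 PosSelected cells than in the 44 NoSelection cells.

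The promoters of Rag1, Itm2a and Cd5 are printed because these genes had the lowest and the 2 highest ratios in the CD4+CD8+ gate. Rag1 lies at chr2:101638252-101649532, Itm2a at chrX:107397195-107403360 and Cd5 at chr19:10718107-10739026 in RefSeq's GRCm38.p6 annotation. Each window runs from 250 bases before to 50 bases after an annotated start, on the minus strand. The start used for Cd5 lies inside the gene's span, not at its outermost end. Capitals mark CAGGTG or its reverse complement CACCTG, an E-box that E proteins such as E2A and HEB bind. It was searched on both strands and occurs in 6640 of 32851 RefSeq promoter windows, or 20.2%. Each match is a description of the letters and no measure of binding.
Rag1, chr2:101649483-101649782, 1 match: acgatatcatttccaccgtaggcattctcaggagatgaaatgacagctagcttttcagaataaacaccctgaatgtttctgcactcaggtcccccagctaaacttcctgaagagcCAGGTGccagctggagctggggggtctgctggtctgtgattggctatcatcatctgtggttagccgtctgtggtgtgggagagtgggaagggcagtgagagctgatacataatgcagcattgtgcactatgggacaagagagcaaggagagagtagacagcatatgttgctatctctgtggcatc
Itm2a, chrX:107403311-107403610, 1 match: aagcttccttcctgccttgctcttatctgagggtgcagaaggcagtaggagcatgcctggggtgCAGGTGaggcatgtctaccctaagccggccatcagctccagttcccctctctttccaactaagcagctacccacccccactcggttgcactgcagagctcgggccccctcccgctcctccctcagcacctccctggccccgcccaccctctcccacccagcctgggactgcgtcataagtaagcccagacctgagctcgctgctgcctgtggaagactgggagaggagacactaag
Cd5, chr19:10738925-10739224, 2 matches: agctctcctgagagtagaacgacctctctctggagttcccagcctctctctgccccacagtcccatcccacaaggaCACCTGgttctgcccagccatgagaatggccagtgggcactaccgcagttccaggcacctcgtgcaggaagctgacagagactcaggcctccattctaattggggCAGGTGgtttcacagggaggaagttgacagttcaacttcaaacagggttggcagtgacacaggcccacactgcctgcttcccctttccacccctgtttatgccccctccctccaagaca

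Within the CD4-CD8- gate, cell cycle genes were lower and a few maturation genes higher in PosSelected cells, while none of the 10 CD3 and proximal signalling genes passed 2-fold. Of 1701 genes compared, 34 (2%) were at least 2-fold higher and 133 (7.82%) at least 2-fold lower, with a median log2 ratio of -0.05. The higher genes numbered 107 with unscaled gates, and the lower genes 64 without cells above the 95th percentile of UMIs. Those settings changed the cells, with 85 in place of 25 PosSelected cells in the unscaled gate. The number of genes compared changed with them, so these counts are not out of 1701. All 9 compared cell cycle genes were at least 2-fold lower, with a median log2 ratio of -3.12. Mcm6, a subunit of the replicative helicase, had 2 UMIs in 2 PosSelected cells and 131 UMIs in 26 NoSelection cells, a ratio of 0.0476 (0.00570 to 0.175). H1f5, a linker histone, had 0 UMIs in PosSelected cells and 118 UMIs in 5 NoSelection cells, at least 12.6-fold lower by the 3 UMIs that a count of 0 allows in the PosSelected sum.

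Few cells carried the cell cycle UMIs. The list had 32 UMIs in the 25 PosSelected and 891 UMIs in the 51 NoSelection cells, and 5 NoSelection cells held 704 of the 891. Its level was 266.5 CPM in PosSelected and 2382 CPM in NoSelection cells, a ratio of 0.112 (0.0760 to 0.159). Without cells above the 95th percentile of UMIs of their mouse, 8 PosSelected and 6 NoSelection cells of this gate, it was 281 CPM in PosSelected and 647 CPM in NoSelection cells, a ratio of 0.435 (0.243 to 0.727). Mki67, a proliferation marker with 44 of its 88 NoSelection UMIs in 1 cell, then changed side, with a log2 ratio of 0.81 in place of -3.24. Because the percentile was taken within each mouse, the depth of the cut differed. The deepest PosSelected cell held 10961 UMIs, whereas NoSelection cells of up to 12514 UMIs were kept.

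Maturation genes were higher in part: 4 of 9 compared passed 2-fold, none was 2-fold lower, and the median log2 ratio was 0.84. That median was 0.17 with centred log ratio gates, 0.32 without cells in which 1 antibody other than THY1.2 held over 30% of antibody UMIs, and 1.80 with unscaled gates. Slfn2, a Schlafen gene of quiescent T cells, had 291 CPM in PosSelected and 61.5 CPM in NoSelection cells, a ratio of 4.74 (2.72 to 8.40). Ms4a4b, a membrane protein of mature T cells, had 508 CPM in PosSelected and 126 CPM in NoSelection cells. Ifi27l2a had 40 UMIs in 7 PosSelected cells and 3 UMIs in 2 NoSelection cells, too few to enter the counts. H2-K1 had 916 CPM in PosSelected and 396 CPM in NoSelection cells.

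Preselection genes did not pass 2-fold in this gate in any of the 3 compared. Of 10 post-selection genes, 2 were at least 2-fold higher and 1 was at least 2-fold lower, with a median log2 ratio of 0.05, or 0.74 with unscaled gates. Il7r, the interleukin-7 receptor, had 267 CPM in PosSelected and 90.9 CPM in NoSelection cells, but 16 of its 32 PosSelected UMIs came from 1 cell, and its log2 ratio was -1.29 with centred log ratio gates. Bcl2, a survival protein, had 58.3 CPM in PosSelected and 193 CPM in NoSelection cells, a ratio of 0.303 (0.118 to 0.657). Nr4a1 had 0 UMIs in PosSelected and 56 UMIs in 12 NoSelection cells, at least 5.99-fold lower by counting error alone. Much of this NoSelection count came from the 1 cell described above for the sum over all cells. Ikzf2, which encodes Helios and is induced by strong receptor signals, had 192 CPM in PosSelected and 417 CPM in NoSelection cells.

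Double-negative cells of both mice expressed gamma delta genes. A Trgv segment was detected in 14 of 25 PosSelected and 47 of 51 NoSelection cells, and Trdc in 12 PosSelected and 39 NoSelection cells. These counts were not thinned, and median depth was 4429 UMIs in PosSelected and 6147 in NoSelection cells. Trgv segments held 169 of 120091 RNA UMIs of the gate in PosSelected and 520 of 374041 in NoSelection cells. The 7 gamma delta genes had a median log2 ratio of 0.44, with 1 (Sox13, a transcription factor of gamma delta cells) past 2-fold, and summed to 2257 CPM in PosSelected and 1607 CPM in NoSelection cells. Without the cells above the 95th percentile the sums were 1635 CPM in PosSelected and 1846 CPM in NoSelection cells, a ratio of 0.886 (0.702 to 1.11). The summed level was thus lower in PosSelected cells over all gates, where double-negative cells were fewer. Within the gate its direction depended on the deepest cells of each mouse. The list's median log2 ratio in this gate was -0.71 with unscaled gates. Trbv12 segments were read in 21 of 25 PosSelected and 44 of 51 NoSelection double-negative cells.

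Gzma, a granzyme of cytotoxic and innate-like lymphocytes, had 422 UMIs in 12 PosSelected and 492 UMIs in 23 NoSelection double-negative cells, a ratio of 2.67 (2.34 to 3.05). This rested on the deepest cells of each mouse, which were not cut at the same depth. Without those above the 95th percentile the NK and ILC list, nearly all of it Gzma, had 264 CPM in PosSelected and 1511 CPM in NoSelection cells, a ratio of 0.175 (0.0967 to 0.291). Ncr1, Klrd1 and other defining NK genes were too low to compare. Ccl5, a chemokine of effector cells, had all of its 40 PosSelected UMIs in 1 cell.

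**Figure D5:**
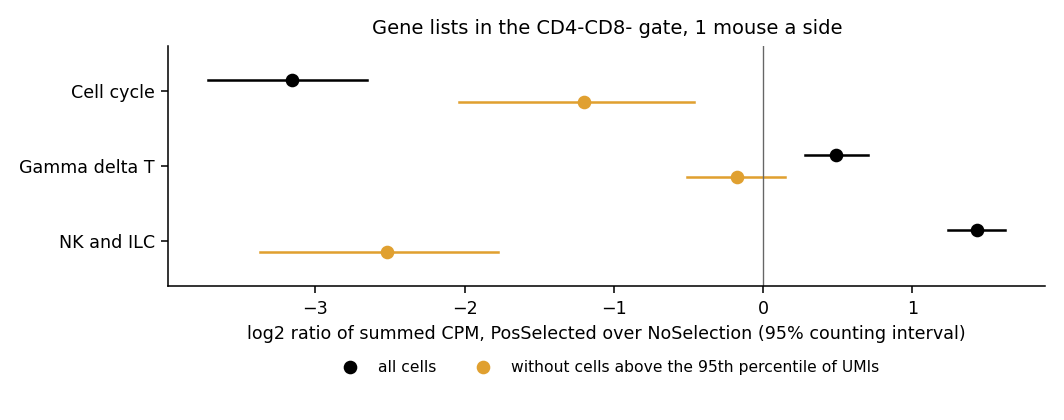
Log2 ratio of summed CPM, PosSelected over NoSelection, of 3 gene lists in the CD4-CD8- gate with all cells and without cells above the 95th percentile of UMIs of their mouse; lines are 95% counting intervals. The cell cycle list stays below 0 in both, and the NK and ILC list changes side, with ratios of 2.70 and 0.175.

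Antibody sums of the double-negative gate were often set by 1 cell. Of 72 antibodies, 6 (8.33%) were at least 2-fold higher and 7 (9.72%) at least 2-fold lower, and without cells with 1 dominating antibody 2 were higher and 2 lower. NK1.1 summed to 5915 UMIs in PosSelected and 272 in NoSelection cells, but 5778 of the 5915 came from 1 cell, and the median per cell was 15.5 per 10000 in PosSelected and 15.1 in NoSelection cells. In GITR 3138 of 3317 and in CD16-CD32 1574 of 1658 PosSelected UMIs likewise came from 1 cell each. In 8 of 25 PosSelected and 7 of 51 NoSelection cells of this gate, 1 antibody other than THY1.2 held over 30% of the cell's antibody UMIs. CD2 had a median of 37.3 in PosSelected and 90.4 in NoSelection double-negative cells, the reverse of its order among double-positive cells, and CD5 was close, at 212 in PosSelected and 245 in NoSelection cells. Pan-CD45 had medians of 128 in PosSelected and 286 in NoSelection cells, and its sum was 0.458 times as high (0.433 to 0.484).

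The CD4+CD8- gate held 10 NoSelection cells, too thin to describe a population, and its values are given as such. Of 616 genes, 43 (6.98%) were at least 2-fold higher and 6 (0.974%) at least 2-fold lower in PosSelected cells. Of 14 maturation genes 2 were at least 2-fold higher, with a median log2 ratio of 0.21, and Klf2, a factor that switches on S1pr1, had 600 CPM in PosSelected and 641 CPM in NoSelection cells. By point ratios most of the list was thus within 2-fold once CD4+CD8- cells were set against each other. The medians of the list's counting bounds were -0.48 and 1.15 in log2, so a 2-fold difference is not excluded. Itm2a had 479 UMIs in 120 of 195 PosSelected cells and 3 UMIs in 2 of 10 NoSelection cells, a ratio of 12.7 (4.31 to 61.7), and Ifi27l2a had 1067 CPM in PosSelected and 128 CPM in NoSelection cells. Igfbp4, a secreted growth factor-binding protein, was lower, with 210 CPM in PosSelected and 1389 CPM in NoSelection cells, a ratio of 0.151 (0.111 to 0.208).

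Of 95 antibodies, 4 (4.21%) were at least 2-fold higher and 6 (6.32%) at least 2-fold lower in the PosSelected CD4+CD8- cells. The Vα2 antibody had a median of 244 per 10000 (lowest 7.21, highest 1105) in PosSelected and 40.7 (3.44 to 1274) in NoSelection cells, and the Vβ5.1/Vβ5.2 antibody 83.2 in PosSelected and 23.1 in NoSelection cells. The ranges overlapped. CD44, which the sort required to be low, had a median of 22.7 in PosSelected and 59.7 in NoSelection cells, and pan-CD45 of 111 in PosSelected and 372 in NoSelection cells. Trdc had 14 UMIs in 7 of 195 PosSelected cells and 12 UMIs in 3 of 10 NoSelection cells. Zbtb16, the innate-like factor PLZF, had 4 UMIs in 1 PosSelected cell and 7 UMIs in 1 NoSelection cell.

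Over all cells, 11 of 100 antibodies (11%) were at least 2-fold higher and 5 (5%) at least 2-fold lower in PosSelected cells. CD5 had a median of 876 per 10000 in PosSelected and 171 in NoSelection cells, and CD2 of 255 in PosSelected and 65.6 in NoSelection cells. TCRB had a median of 112 in PosSelected and 24.3 in NoSelection cells, and ICOS, a co-stimulatory receptor, of 37.5 in PosSelected and 13.8 in NoSelection cells. SCA1, the product of the interferon-responsive Ly6a gene, had a median of 12.4 in PosSelected and 4.03 in NoSelection cells, and Ly6a RNA had 162 UMIs in PosSelected and 7 UMIs in NoSelection cells. The NK1.1, GITR and CD16-CD32 excess of single cells described above is part of the 11, and without cells with 1 dominating antibody 7 were higher and 3 lower. CD8A and CD8B sums in PosSelected cells were 0.266 (0.259 to 0.273) and 0.247 (0.242 to 0.253) times as high. CD25, the alpha chain of the interleukin-2 receptor, was 0.270 times as high (0.239 to 0.305) at low level, with a median of 2.30 in PosSelected and 5.25 in NoSelection cells. As a background, the 9 isotype controls ran from 0.964 to 11.7 per 10000 of the sum in PosSelected and from 1.25 to 12.8 in NoSelection cells.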

How the data were processed

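RNA and antibody UMI counts from the 10x Genomics 5′ assay were taken as the authors deposited them, raw counts per gene or antibody and cell over 55494 genes, 180 antibodies and 1331 cells of 6 mice. The submitters' processing notes name Cell Ranger 8.0.1, Seurat and the genome build mm10, with no roles. Cell filters, doublet removal and the hashtag-calling tool are not given in the sources used here. The deposited cells all carried a hashtag and had at least 506 genes; no cell was removed and no doublet caller was run, and cells of very high UMIs were left out as an alternative.

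CD4 and CD8A thresholds came from a 2-component Gaussian mixture on log2(UMIs per 10000 + 1) over all cells. Counts were summed per mouse and per gate and scaled to CPM. Ratios carry exact conditional binomial intervals, CPM exact Poisson intervals, shares Clopper-Pearson intervals and differences of shares Newcombe intervals, all at 95%. Antibodies with at least 500 UMIs over both mice were compared, without isotype controls. Sums of 0 were set to 3 UMIs in list medians. The self-test on simulated data recovered known ratios, but its counts were drawn independently, as the intervals assume. It therefore cannot show how the intervals behave where few cells hold most UMIs. Depth per gate ranged from 19805 to 589600 RNA UMIs, and intervals are wide in the smaller gates.

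Members, lists and tests were chosen with earlier results of these data known. The 23 gene lists hold 199 genes. Named genes were all list members, the 10 highest and 10 lowest ratios over all cells and 6 each way in gates with at least 20 cells in both mice whose interval lay wholly beyond 2-fold, receptor segments left out, and the 6 genes with the largest composition and within-gate shares in each direction. Promoters came from RefSeq (GRCm38.p6), and 234 of the 236 named genes matched its annotation. Alternatives were other antibody scalings, thresholds, filters on low counts, TMM (edgeR 4.0.16) and median-of-ratios factors, equal weight of cells, capped counts and left-out cells. Python 3.11.15 with numpy 2.4.6, scipy 1.17.1 and scikit-learn 1.9.0 was used. Some list members were counted in their lists but are not reported singly here.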

Additional observations from a re-analysis of the deposited data

How the results depend on the processing

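In the CD4+CD8+ gate the list medians held under all 11 alternatives, from -2.51 to -1.57 for preselection genes and from 1.68 to 2.42 for post-selection genes, as did Rag1 (-5.10 to -4.03), Itm2a (5.26 to 6.64) and Cd5 (3.83 to 4.74). The share of CD4+CD8+ cells stayed lower in the PosSelected mouse, with differences of -35.63 to -20.97 points. Centred log ratio gates, within-gate unscaled gates, within-gate capping and leaving out cells with 1 dominating antibody were chosen after seeing the data. No paired analysis was possible because each host had 1 mouse and the values come from no test; no replicate could be left out either.

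Unscaled antibody gates gave share differences of 47.9 points for CD4+CD8-, -9.42 for CD4-CD8+ and -17.5 for CD4-CD8- cells. In the CD4-CD8- gate they gave 107 higher genes and medians of -0.71 (gamma delta), 0.74 (post-selection) and 1.80 (maturation). Genes higher and lower over all cells numbered 382 and 478 with at least 20 UMIs, 56 and 40 with at least 200, and 2856 and 3201 with at least 1; fewer or more genes entered by construction. CD4+CD8+ counts were 43 higher and 51 lower with centred log ratio gates, and 41 and 55 with thresholds 0.5 lower. CD4-CD8- counts were 52 higher with thresholds 0.5 higher, 64 lower without cells above the 95th percentile of UMIs and 85 lower without cells with 1 dominating antibody. Within gates, each of these settings also changed which cells, and so how many genes, were compared. Composition shares of the lower genes were 23.7% with PosSelected and 69.1% with NoSelection levels.

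Equal weight of cells gave -0.089 for Cd4, -1.40 for the cell cycle and -2.45 for the preselection list over all cells, and -0.22 for gamma delta genes in CD4-CD8- cells. Without cells above the 95th percentile, cell cycle and gamma delta medians over all cells were -1.44 and -3.16, and in CD4-CD8- cells gamma delta was -0.15, Ccl5 -0.89, Cpa3 -3.02, Gzma -2.72, Mki67 0.81 and Sox13 -0.46. Ccl5 was -1.34 with thresholds 0.5 lower and without cells near a threshold. Centred log ratio gates gave -1.27 for Ccl5, -1.29 for Il7r and 0.17 for the maturation list in CD4-CD8- cells. Without cells with 1 dominating antibody that list had 0.32, and the CD45.2, CXCR3 and NK1.1 antibodies -0.41, 0.11 and -0.088.

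Antibodies past 2-fold over all cells were then 7 higher and 3 lower, and in CD4-CD8- cells 2 and 2. Capped counts gave 7 higher over all cells, 1 lower in CD4+CD8+ and 2 lower in CD4-CD8- cells; mean UMIs per cell gave 4 lower and 2 lower in those gates. For moved values not tied to fewer genes or cells, the cause was not tested. The 10 CD4+CD8- NoSelection cells and the 11 CD4-CD8+ cells limit what can be said of those gates.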

Other observations

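Of 11 genes known to be induced by strong, deleting or agonist receptor signals, 4 could be compared over all cells. None of the 4 was higher in the PosSelected mouse and 3 were at least 2-fold lower, against 5.53% of all genes compared. The 3 include Nr4a1, much of it from 1 NoSelection cell, as given above. In the CD4+CD8+ gate none could be compared, and the list summed to 27 UMIs (405 CPM) in PosSelected and 12 UMIs (141 CPM) in NoSelection cells. Pdcd1, which encodes the inhibitory receptor PD-1, had 36.0 CPM in PosSelected and 243 CPM in NoSelection cells, a ratio of 0.148 (0.0953 to 0.223). Ikzf2 had 73.3 CPM in PosSelected and 316 CPM in NoSelection cells. Tnfrsf18, which encodes GITR, had 44.7 CPM in PosSelected and 47.5 CPM in NoSelection cells. The CD4-CD8- gate held 120 of the 128 Pdcd1 UMIs and 156 of the 166 Ikzf2 UMIs of the NoSelection mouse.

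Chemokine and egress receptors differed among themselves. Gpr183, an oxysterol receptor of maturing T cells, had 63 UMIs in PosSelected and 10 UMIs in NoSelection cells, a ratio of 4.11 (2.10 to 8.99). Ccr9, the gut- and thymus-homing receptor of double-positive cells, had 565 CPM in PosSelected and 696 CPM in NoSelection cells over all cells. Within the CD4+CD8+ gate Ccr9 had 1951 CPM in PosSelected and 1080 CPM in NoSelection cells, a ratio of 1.81 (1.37 to 2.39), and within the CD4-CD8- gate 1291 CPM in PosSelected and 690 CPM in NoSelection cells, a ratio of 1.87 (1.52 to 2.29). Each of the 2 gates had the higher level in the PosSelected mouse, and the sum over all cells had the lower.

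Nrgn, a calmodulin-binding protein, was among the 10 lowest ratios over all cells, with 14 UMIs in 5 PosSelected cells and 254 UMIs in 15 NoSelection cells, of which 1 cell held 106. Gm20400, a predicted gene with the highest ratio over all cells, had 290 UMIs in 104 PosSelected cells and 3 UMIs in 2 NoSelection cells, a ratio of 63.1 (21.4 to 308).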
